A study of Mus musculus with 16 samples.

Results

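The machinery that writes, copies and reads DNA methylation was followed through cultured mouse male germline stem cells by 7 genes, chosen by name among the 27128 genes of the tables: the de novo methyltransferases Dnmt3a and Dnmt3b, their cofactor Dnmt3l, the maintenance methyltransferase Dnmt1 with its targeting factor Uhrf1, the chromatin remodeller Hells, and Mbd2, a reader. All 7 were found in all 12 RNA libraries, and all 7 passed the filter on low values (1 CPM or more on average over the 12 libraries, CPM being read counts scaled to library size).

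Methyl groups on cytosines of CG dinucleotides are placed on bare DNA by DNMT3A and DNMT3B, which DNMT3L, itself without catalytic activity, stimulates. After each round of replication UHRF1 recognises the half-methylated CG and brings DNMT1 to it, and HELLS opens nucleosomal DNA to these enzymes. MBD2 binds methylated CG through its methyl-CpG-binding domain and recruits a repressive deacetylase complex. In the male germ line most methylation is laid down in fetal prospermatogonia, where DNMT3L is abundant and required, and spermatogonia then keep it by maintenance through their divisions.

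Germ cells positive for Oct4 and negative for KIT had been sorted from B6;CBA-Tg(Pou5f1-EGFP)2Mnn/J mice at postnatal day 5.5, whose transgene reports Pou5f1 (Oct4) as GFP, and were kept in culture in StemPro-34 SFM to which GDNF, bFGF and EGF were added. All 12 groups share this mouse line and medium. Every group is 1 library: differences between groups have no replicates behind them and are given without p-values. In the feeder removal series cells were taken from mouse embryonic fibroblast (MEF) feeders (day 0) and 4 and 9 days after transfer to Matrigel, a basement membrane extract. Matrigel at 0.1 and at 10 µg/cm2 carried the epithelial-like and the mesenchymal-like culture. Fractions named GFP-low, GFP-mid and GFP-high were sorted from cells on 10 µg/cm2 Matrigel. On MEF feeders, cells received DMSO, the solvent control, or UNC0638, an inhibitor of the histone methyltransferases G9a and GLP, at 0.5, 1 or 2 µM for 48 hours. The labels do not say whether feeder cells were removed before RNA was taken.

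Library totals ranged from 4335185 to 12019651 expected counts. The 10 germ cell markers examined, Ddx4 and Dazl among them, were all above 3 counts in all 12 libraries, with summed levels of 3139 CPM in the mesenchymal-like library to 4892 CPM at day 0. Markers of other cells varied more. The 20 fibroblast genes summed to 10894 CPM in the mesenchymal-like library against 553 CPM in the epithelial-like one, and the 12 myeloid genes to 1945 and 1720 CPM in the GFP-low and GFP-mid fractions, 225 CPM in GFP-high and at most 44.9 CPM in the other 9 libraries. In bulk libraries, fewer cells of a type and less RNA per cell cannot be told apart.

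Sequences just upstream of the annotated starts are shown for Dnmt3l, whose level varied most over the series, and for Dnmt3b, the catalytic partner that differed most between the GFP fractions; capitals mark CG dinucleotides, the substrate of these enzymes. They are the 250 bases before the 5'-most start in the RefSeq promoter table, on the plus strand in build GRCm38.p6; such starts need not match the gene ends given below, and that of Dnmt3b lies inside them. The Dnmt3l window is chr10:78042037-78042286 and the Dnmt3b window chr2:153649199-153649448.
Dnmt3l: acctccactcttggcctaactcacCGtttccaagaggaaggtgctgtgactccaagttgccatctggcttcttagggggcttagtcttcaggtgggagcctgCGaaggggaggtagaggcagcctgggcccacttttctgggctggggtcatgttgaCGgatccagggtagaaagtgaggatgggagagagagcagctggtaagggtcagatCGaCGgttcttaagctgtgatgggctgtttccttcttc
Dnmt3b: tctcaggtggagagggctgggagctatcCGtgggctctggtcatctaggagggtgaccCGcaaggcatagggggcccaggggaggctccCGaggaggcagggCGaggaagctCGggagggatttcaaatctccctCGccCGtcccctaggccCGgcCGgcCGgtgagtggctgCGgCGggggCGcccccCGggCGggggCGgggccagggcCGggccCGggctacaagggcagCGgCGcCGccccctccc

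The Dnmt3l window held 5 CG dinucleotides and the Dnmt3b window 21, where the median of 32851 RefSeq promoter windows of the same length was 6. The other 2 annotated starts of Dnmt3l were also poor in CG, with 4 and 3 in their windows. For the motif GGGCGG, the core of a GC box, searched on both strands, 32.7% of all windows had a match; the Dnmt3b window had 3, of which 2 were adjacent, and the Dnmt3l window had none. The E2F-type motif TTTCCCGC, present on either strand in 0.895% of windows, was found once in the window of Hells and in none of those before the 5'-most starts that the promoter table lists for Dnmt1, Dnmt3a, Dnmt3b, Dnmt3l and Uhrf1. Windows before the other listed starts were not searched for motifs. Among them, a start of Dnmt1 had 26 CG and a start of Uhrf1 had 30. The RefSeq promoter table matched 6 of the 7 genes.

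In GRCm38.p6 the 7 genes lie at chr9:20907206-20959888 (Dnmt1), chr17:56303337-56323486 (Uhrf1), chr19:38930262-38970470 (Hells), chr12:3801559-3914443 (Dnmt3a), chr2:153649411-153687730 (Dnmt3b), chr10:78042287-78063622 (Dnmt3l) and chr18:70568225-70629134 (Mbd2).

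Per unit of length, Hells, Uhrf1 and Dnmt1 had the highest levels. By deposited TPM, which corrects for length, Hells ranged from 254 to 476, Uhrf1 from 105 to 379 and Dnmt1 from 69.4 to 175, and these were the highest of the 7 in every library. Dnmt3a (23.3 to 53.9 TPM) and Dnmt3b (31.7 to 64.5 TPM) came next in all 12. Mbd2 (4.72 to 14.7 TPM) and Dnmt3l (0.53 to 17.6 TPM) were the lowest. Uhrf1 was 1.33 to 2.35 times as abundant as its partner Dnmt1. The summed TPM of Dnmt3a and Dnmt3b was 0.392 times that of Dnmt1 in the GFP-low fraction, 0.735 times in GFP-high and 1.03 to 1.28 times in the feeder removal series.

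**Figure D1:**
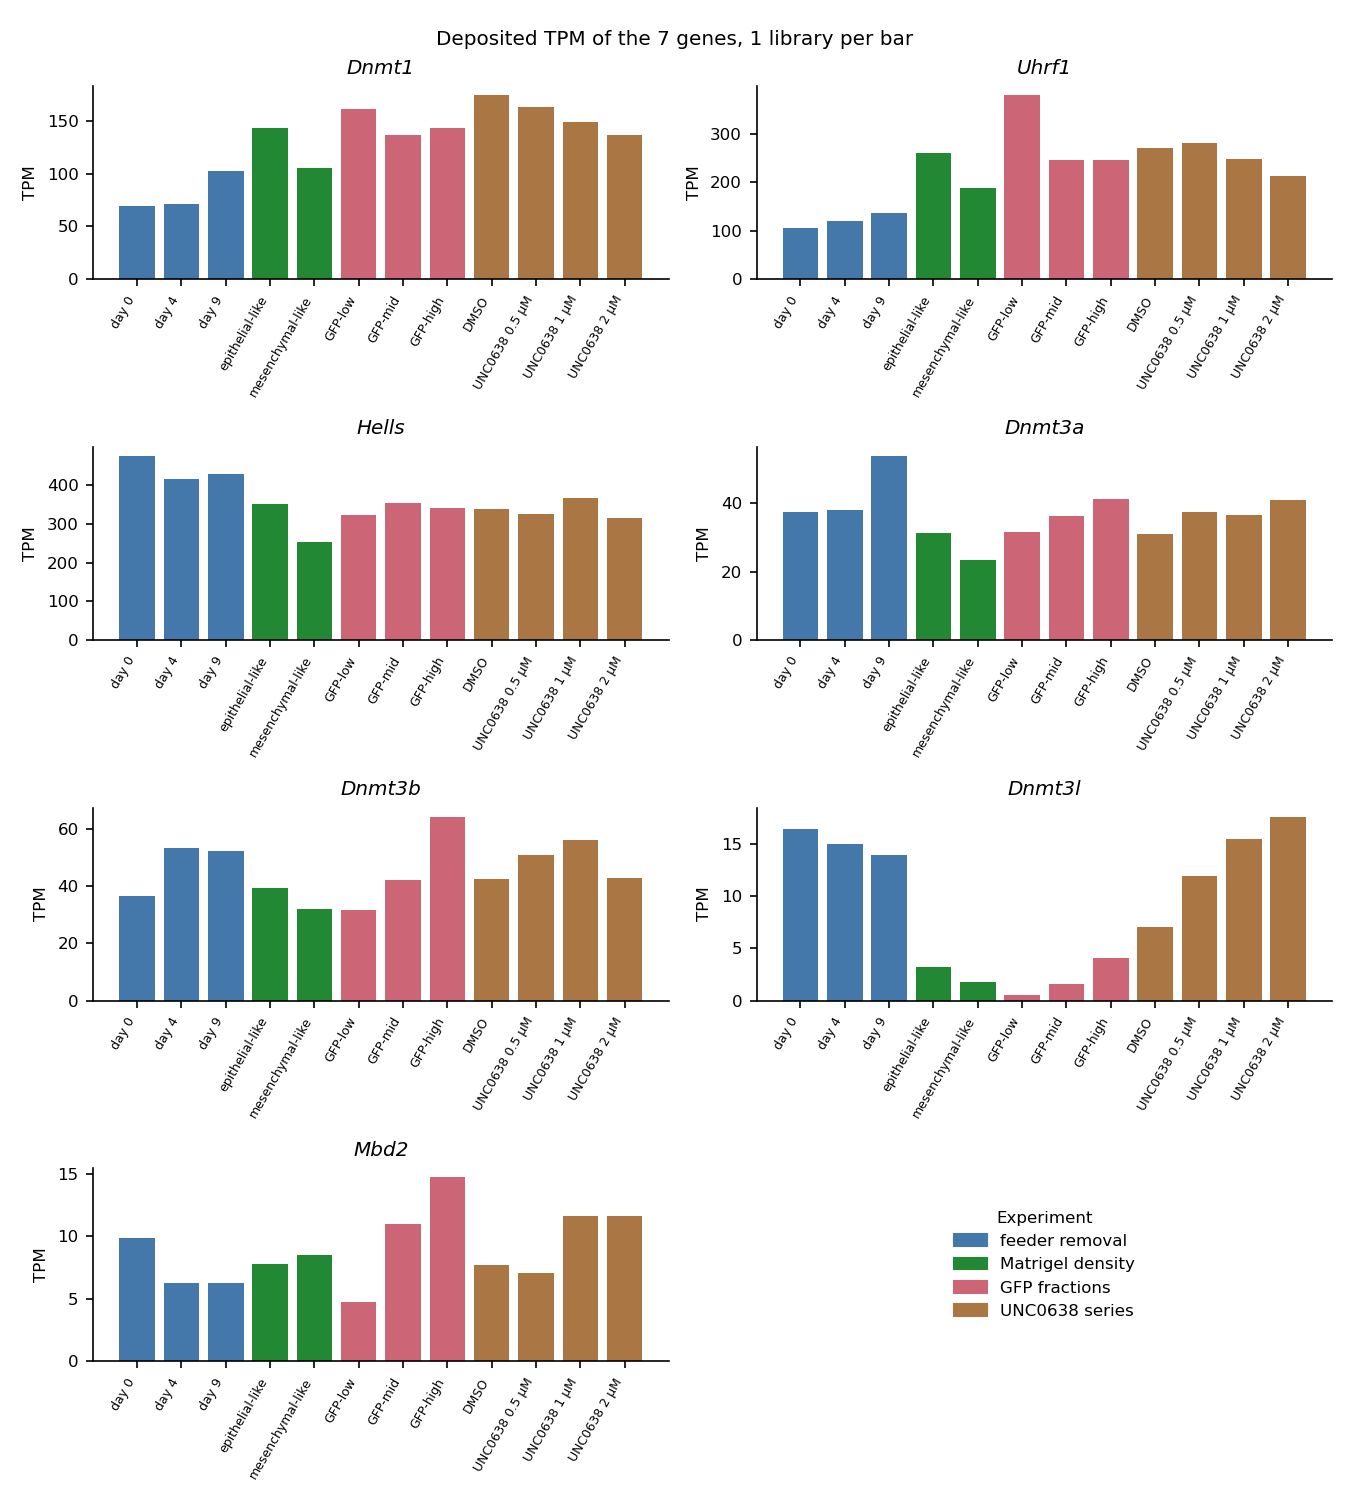
Deposited TPM of each of the 7 genes (vertical axis, from 0, a separate scale per gene) in the 12 libraries, 1 bar per library, coloured by experiment. Dnmt3l is lowest in the 3 GFP fractions and the 2 Matrigel density libraries, at 0.53 to 4.03 TPM, against 7.03 to 17.6 TPM elsewhere; no error can be drawn because each group has 1 library.

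The spread over the 12 libraries differed by gene. Dnmt3l spanned 33.8-fold in CPM, from 0.502 in GFP-low to 16.95 at 2 µM UNC0638. Uhrf1 spanned 3.64-fold, Mbd2 2.80-fold and Dnmt1 2.51-fold, while Dnmt3b, Dnmt3a and Hells spanned 1.83-fold, 1.79-fold and 1.64-fold. When the 12 libraries were ordered by level, most neighbours could not be separated by counting error: all 11 neighbouring pairs for Mbd2, 10 of 11 for Dnmt3b, 9 for Dnmt3l, 8 for Dnmt3a, 7 for Hells, 5 for Dnmt1 and 4 for Uhrf1 had a 95% counting interval of their ratio that included no change. For Uhrf1, GFP-low at the top of the order (788 CPM) was separated from the next library, the epithelial-like one (593 CPM), and the 3 feeder removal libraries formed the bottom (217 to 258 CPM). For Dnmt3l, GFP-high at 3.4 CPM, the highest of the 5 lowest libraries, was separated from its neighbour DMSO at 6.59 CPM.

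The sorted fractions asked what distinguishes cells by reporter brightness. The Pou5f1 transcript followed the sort and stood at 83.9 CPM in GFP-low, 176 CPM in GFP-mid and 367 CPM in GFP-high. In GFP-high, the cofactor Dnmt3l, the reader Mbd2 and the de novo enzyme Dnmt3b were higher than in GFP-low, and the maintenance genes Uhrf1 and Dnmt1 were lower. Dnmt3l rose, with 4, 18 and 32 expected counts or 0.502, 1.43 and 3.4 CPM, a 6.77-fold difference between high and low (95% counting interval 2.40 to 26.4) that rests on 4 reads at the low end. Mbd2 rose from 5.27 to 11.7 and 14.8 CPM, 2.80-fold (1.97 to 4.06). These 2 of 7 reached the 2-fold threshold on log2 of CPM + 1 between GFP-high and GFP-low, where 9.54% of the 14301 genes tested did. Both were in the higher direction, which 6.94% of genes took, and none of the 7 was 2-fold lower, as 2.59% of genes were. Both also increased through GFP-mid, though the step of Dnmt3l from low to mid (interval -0.10 to 3.53) and that of Mbd2 from mid to high (-0.01 to 0.68) included no change, and 5.99% of genes were 2-fold higher with such an order (2.13% were 2-fold lower in the reverse order). From GFP-low to GFP-mid only Mbd2 passed 2-fold, where 4.07% of genes did in either direction, 3.38% higher and 0.685% lower. From GFP-mid to GFP-high none of the 7 did, where 2.85% of genes did. With a pseudocount of 0.1 CPM Dnmt3l also passed 2-fold at each of these steps (log2 ratio 1.34 from low to mid and 1.2 from mid to high). Both calls against GFP-low were lost with a pseudocount of 5 CPM (log2 ratios 0.61 for Dnmt3l and 0.94 for Mbd2).

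Dnmt3b came next, at 80.0, 102 and 147 CPM in the order low, mid, high, 1.83-fold higher in GFP-high than in GFP-low (1.67 to 2.02), short of 2-fold on the CPM + 1 scale (log2 ratio 0.87) and at it by deposited TPM (31.7, 42.3 and 64.5 TPM, log2 ratio of TPM + 1 1.00). Both steps of Dnmt3b exceeded counting error, 1.27-fold from low to mid (1.15 to 1.40) and 1.44-fold from mid to high (1.34 to 1.56). Reads of Dnmt3b could be shared with its copy Dnmt3b-ps1, also named Dnmt3c, and its counts were not whole numbers in 5 of 12 libraries. The copy held 4 counts in GFP-low and 0 in GFP-mid and GFP-high. Dnmt3a, the other de novo enzyme, was nearly level in CPM, at 132, 143 and 146 (log2 ratio 0.15, counting interval 0.03 to 0.27). By deposited TPM it was at 31.6, 36.4 and 41.2 (log2 ratio of TPM + 1 0.37), where the median of all genes was 0.11. The TPM ratio of Dnmt3a to Dnmt3b was 0.995, 0.861 and 0.640 across the fractions.

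Of Uhrf1, Dnmt1 and Hells, Uhrf1 differed most, at 788 CPM in GFP-low, 486 in GFP-mid and 460 in GFP-high (log2 ratio -0.77, counting interval -0.83 to -0.72). Its difference lay mainly between low and mid (log2 ratio -0.69), with -0.08 from mid to high. Uhrf1 counts were not whole in 11 of 12 libraries, so some of its reads were shared with other sequences and its level carries that uncertainty. Dnmt1 followed the same steps at a smaller size, with 514, 418 and 412 CPM (log2 ratio -0.32 from low to high, interval -0.38 to -0.25, and -0.02 from mid to high, -0.08 to 0.04). Hells differed little, at 578, 607 and 549 CPM (log2 ratio -0.07; 0.08 by deposited TPM, where the median of all genes moved from -0.02 to 0.11, so that Hells lay below it on both scales).

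**Figure D2:**
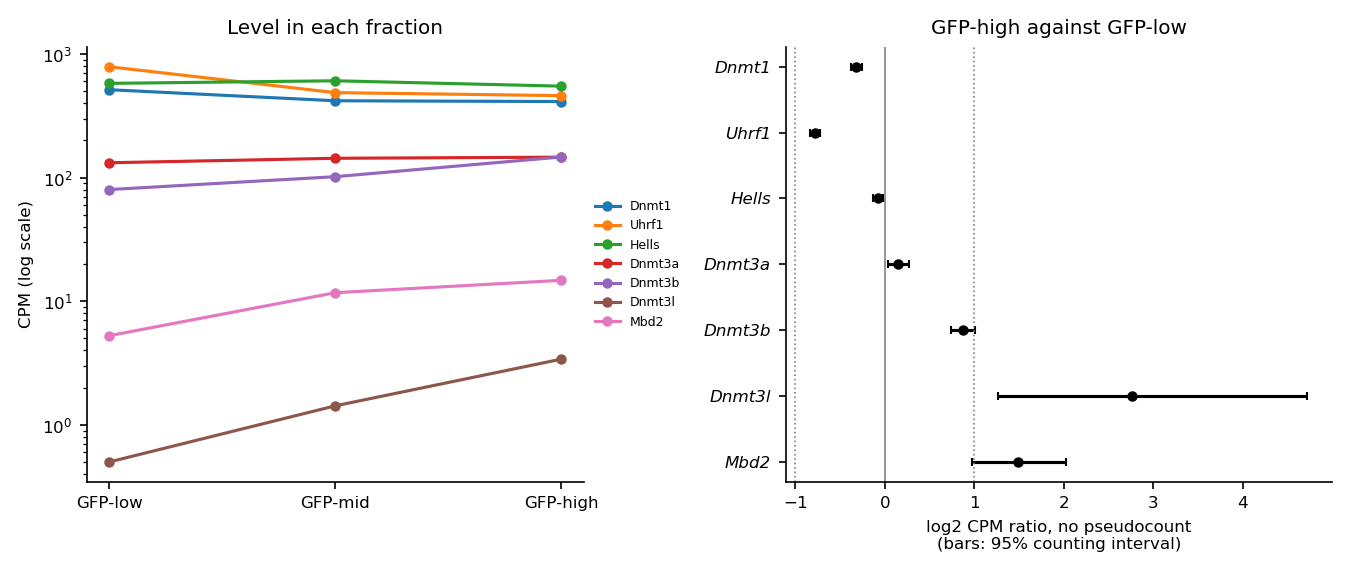
Left, CPM (log scale) of the 7 genes in the 3 sorted fractions, 1 point per library. Right, log2 CPM ratio of GFP-high against GFP-low without pseudocount, with bars for the 95% counting interval and dotted lines at 2-fold: Dnmt3l, Mbd2 and Dnmt3b lie to the right, Uhrf1 and Dnmt1 to the left, and the interval of Dnmt3l is the widest because it rests on 4 and 32 counts.

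In 4 of 7 genes (Dnmt3a, Dnmt3b, Dnmt3l and Mbd2) the level increased in the order low, mid, high, an order that 24.5% of all genes tested had, and in Dnmt1 and Uhrf1 it decreased in that order, as in 26.9% of genes. Several other transcripts moved with the fractions. Of 10 markers of differentiating spermatogonia, 7 were higher in GFP-high than in GFP-low, 4 of them 2-fold, and of 10 markers of undifferentiated spermatogonia 8 were lower, 6 of them 2-fold, while Id4 (log2 ratio 1.72) and Pou5f1 itself (2.11) were 2-fold higher. Of the 20 fibroblast genes 13 were higher and 7 lower, with 7 at least 2-fold higher and none 2-fold lower (median 0.64). The collagen gene Col1a1 was among the 7, at 22.2, 50.9 and 104 CPM. Among 22 S-phase genes 18 were lower (median log2 ratio -0.25; over all genes -0.02), with Rrm2 the only one beyond Uhrf1 at -0.85; of 12 mitosis genes 11 were lower (median -0.30), the exception being Mki67. All 12 myeloid markers were 2-fold lower in GFP-high (median -3.04), and none was 2-fold different between GFP-mid and GFP-low. What part these other cells and cell-cycle differences had in the values of the 7 genes was not tested.

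Of 44 other genes of the pathway, 42 passed the filter; between GFP-high and GFP-low 26 were higher and 16 lower, with 4 at least 2-fold higher and none 2-fold lower (median log2 ratio 0.17). That is 4 of 42, beside 9.54% of all genes past 2-fold, a share near the background. The 4 were Trim28, a corepressor that protects methylation at imprinted regions, which reached 446 CPM from 171 CPM (log2 ratio 1.38; interval 1.29 to 1.47), and the stress-response genes Gadd45g, from 1.76 to 12.8 CPM (2.33), Gadd45b, from 5.52 to 18.9 CPM (1.61), and Gadd45a, from 7.65 to 16.3 CPM (1.00), a family that has been linked to demethylation. The TET enzymes oxidise methylcytosine; Tet3 was the most abundant of them and was higher in GFP-high (32.4, 52.5 and 58.3 CPM, log2 ratio 0.83), while Tet1 and Tet2 were at 1.5 to 3.61 CPM, with intervals of GFP-high against GFP-low that included no change. From GFP-mid to GFP-high, Tet1 was higher beyond counting error (log2 ratio 0.88, 0.41 to 2.15). Uhrf2, the relative of Uhrf1, differed the other way, at 41.5, 63.0 and 77.5 CPM (log2 ratio 0.88, 0.71 to 1.09). Pcna, the replication clamp that also binds DNMT1, was at 292, 248 and 214 CPM (-0.44). The reader Mbd3 had a log2 ratio of 0.42, and Mbd1 of -0.25 with an interval of -0.58 to 0.07. None of the 6 other readers tested reached 2-fold.

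**Figure D3:**
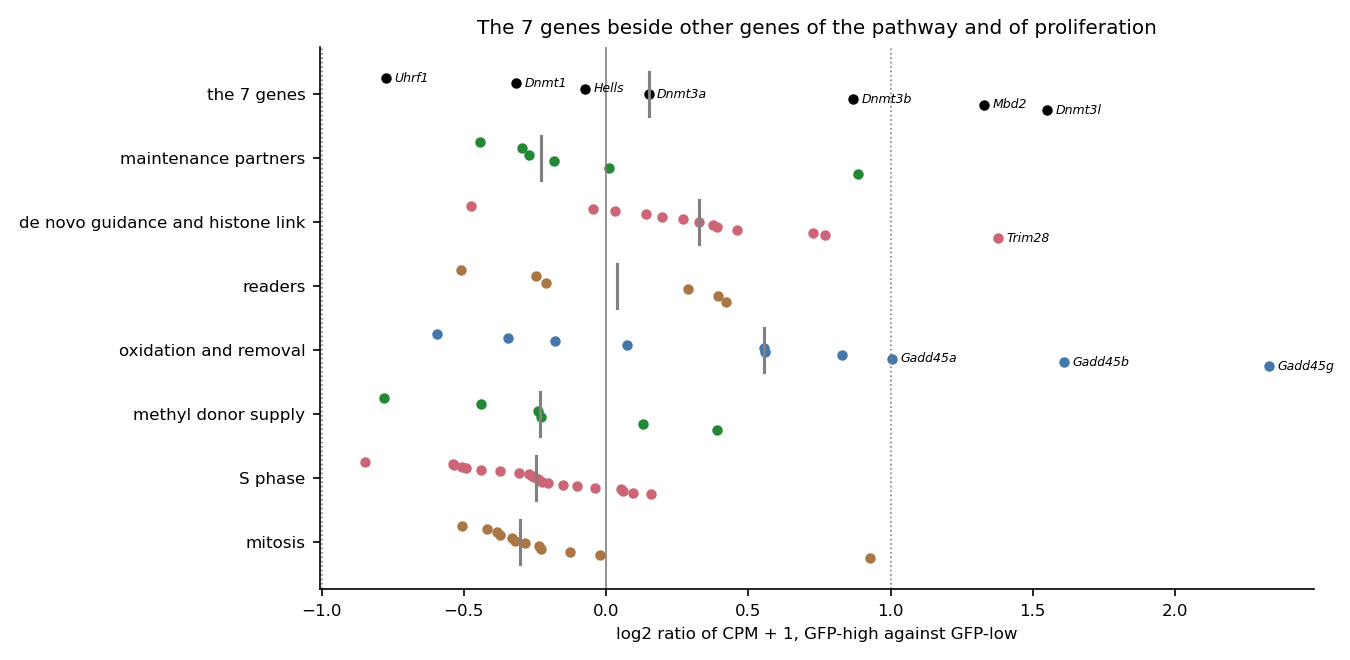
Log2 ratio of CPM + 1 between GFP-high and GFP-low (horizontal axis) for the 7 genes, for 5 groups of other pathway genes and for S-phase and mitosis genes, 1 point per gene, with a grey bar at each group's median and dotted lines at 2-fold. The S-phase and mitosis genes lie mostly left of 0 (medians -0.25 and -0.30), with Uhrf1 and Dnmt1 on the same side, and Dnmt3l, Mbd2 and Dnmt3b lie to the right.

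The feeder removal series asked what changed after the cells left the MEF layer. None of the 7 genes reached 2-fold at day 4 or day 9 against day 0, where 2.28% and 2.6% of genes did, or at day 9 against day 4, where 1.74% did. The comparisons share libraries. In value, Dnmt1, Dnmt3a and Uhrf1 increased in the order of the days, as 19.8% of genes did. Dnmt3l, Hells and Mbd2 decreased in that order, as 17.9% did. The steps of Dnmt1 (log2 interval -0.06 to 0.12) and Dnmt3a (-0.07 to 0.15) from day 0 to day 4 included no change. So did that of Mbd2 from day 4 to day 9 (-0.58 to 0.35). With DESeq2 size factors the day 4 step of Dnmt1 was -0.004. By deposited TPM Hells was higher at day 9 than at day 4 (log2 ratio 0.04), where the median of all genes was 0.08. Dnmt1 was at 219, 224 and 298 CPM at days 0, 4 and 9 (log2 ratio 0.44 at day 9, counting interval 0.36 to 0.53). Dnmt3a had the same course, at 148, 152 and 199 CPM (0.43, 0.33 to 0.54), so that both were level at day 4 and higher at day 9. Dnmt3b was higher already at day 4, at 91.0, 132 and 121 CPM (0.53 at day 4, 0.41 to 0.67). Uhrf1 was at 217, 243 and 258 CPM (0.25 at day 9).

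Hells, Dnmt3l and Mbd2 were lower off feeders. Hells was at 844, 733 and 697 CPM (log2 ratio -0.28 at day 9, -0.32 to -0.23), and Mbd2 at 11.02, 6.94 and 6.43 CPM (-0.69, -1.24 to -0.32). Dnmt3l was at 15.4, 13.9 and 11.96 CPM (-0.34, -0.73 to -0.01), and day 4 could not be separated from day 0 or day 9. The fibroblast list summed to 452, 466 and 438 CPM at days 0, 4 and 9 in sum, though single genes differed: 12 of 20 were lower at day 9 than at day 0 (median log2 ratio -0.24), with the smooth muscle actin gene Acta2 at 44.98, 58.99 and 6.92 CPM.

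The Matrigel density experiment compared the mesenchymal-like culture at 10 µg/cm2 with the epithelial-like culture at 0.1 µg/cm2. No member reached 2-fold, against 12.5% of all genes, and 6 of the 7 were lower in the mesenchymal-like library (median log2 ratio -0.41; over all genes -0.06). Uhrf1 stood at 593 CPM in the epithelial-like and 445 CPM in the mesenchymal-like library (-0.41, counting interval -0.50 to -0.32). Hells was at 685 and 516 CPM (-0.41), Dnmt1 at 498 and 383 CPM (-0.38) and Dnmt3a at 148 and 111 CPM (-0.41). Dnmt3b was at 107 and 91.5 CPM (-0.23, -0.43 to -0.03). Centring on germ cell genes gave it 0.14 and moved the median of all genes from -0.06 to 0.32, so that Dnmt3b lay below that median on both scales. Dnmt3l, with 14 and 8 counts, and Mbd2, with 41 and 45, had intervals that included no change. In the same pair of libraries the germ cell list had a median log2 ratio of -0.37 and the S-phase list of -0.30, and the fibroblast list one of 4.83; their part in the difference was not tested.

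Cells of the mesenchymal-like culture and of the sorted fractions were on the same Matrigel density but belong to different experiments. Their libraries also differed in markers of other cells. In the mesenchymal-like library the fibroblast list summed to 10894 CPM, against 325, 311 and 504 CPM in GFP-low, GFP-mid and GFP-high. For the myeloid list the sums were 44.9 CPM against 1945, 1720 and 225 CPM. The part of these differences in the Dnmt3l and Mbd2 levels was not tested. The unsorted Dnmt3l level of 1.93 CPM rested on 8 counts and was not separated from GFP-mid by counting error (log2 interval -0.97 to 1.71), and that of Mbd2, 10.9 CPM, lay between GFP-low and GFP-mid in value.

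The UNC0638 series asked how the cells respond to inhibition of G9a and GLP, and the 3 doses share 1 DMSO library. Dnmt3l was the member with the largest difference and the only one past 2-fold. It had 33 counts with DMSO and 58, 84 and 74 at 0.5, 1 and 2 µM, or 6.59, 11.2, 14.7 and 16.95 CPM, so its level increased at each dose step in value, an order found in 6.5% of genes. The steps between doses rest on few counts and were not tested. Day 0, from a different experiment and without inhibitor, lay between 1 and 2 µM in level. It was not separated from either by counting error (log2 intervals -0.34 to 0.49 and -0.30 to 0.57), which does not show whether the doses differ. Against DMSO Dnmt3l was 1.70-fold higher at 0.5 µM (counting interval 1.09 to 2.68), 2.23-fold at 1 µM (1.47 to 3.44) and 2.57-fold at 2 µM (1.69 to 4.01). At 0.5 µM none of the 7 was 2-fold different, where 3.71% of genes were. At 1 µM 6.71% of genes were 2-fold different (2.59% upward, 4.12% downward). At 2 µM 7.01% were (3.42% upward, 3.59% downward). With a pseudocount of 5 CPM the log2 ratios of Dnmt3l were 0.76 and 0.92 at these doses, short of 2-fold.

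Dnmt3a exceeded its DMSO level of 134 CPM at all 3 doses, reaching 160, 152 and 181 CPM (log2 ratio 0.43 at 2 µM, 0.29 to 0.59). Dnmt3b was at 106, 128, 143 and 111 CPM, highest at 1 µM (0.42, 0.26 to 0.58) and back near DMSO at 2 µM (0.06, -0.12 to 0.24). Being above DMSO at all doses was shared by 25.2% of genes. Mbd2 started from 8.58 CPM in the DMSO library and was at 7.9, 13.1 and 13.3 CPM, with log2 ratios of 0.56 and 0.58 at 1 and 2 µM and intervals from 0.05 and 0.04 upward.

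Dnmt1 decreased at each dose step, as 7.81% of genes did, and lay below DMSO at all doses, as 28.5% did: DMSO 551 CPM, then 517, 478 and 443 CPM. At 2 µM its log2 ratio was -0.31 (-0.40 to -0.23). Uhrf1 was at 556, 579, 516 and 451 CPM (-0.30 at 2 µM, -0.39 to -0.22), and Hells stayed between 575 and 657 CPM. The median log2 ratio of the S-phase genes was 0.04, -0.08 and -0.29 from the lowest to the highest dose, and the fibroblast list summed to 3800 CPM with DMSO and 1566, 725 and 914 CPM with the inhibitor. What part these had in the values of the 7 genes was not tested.

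**Figure D4:**
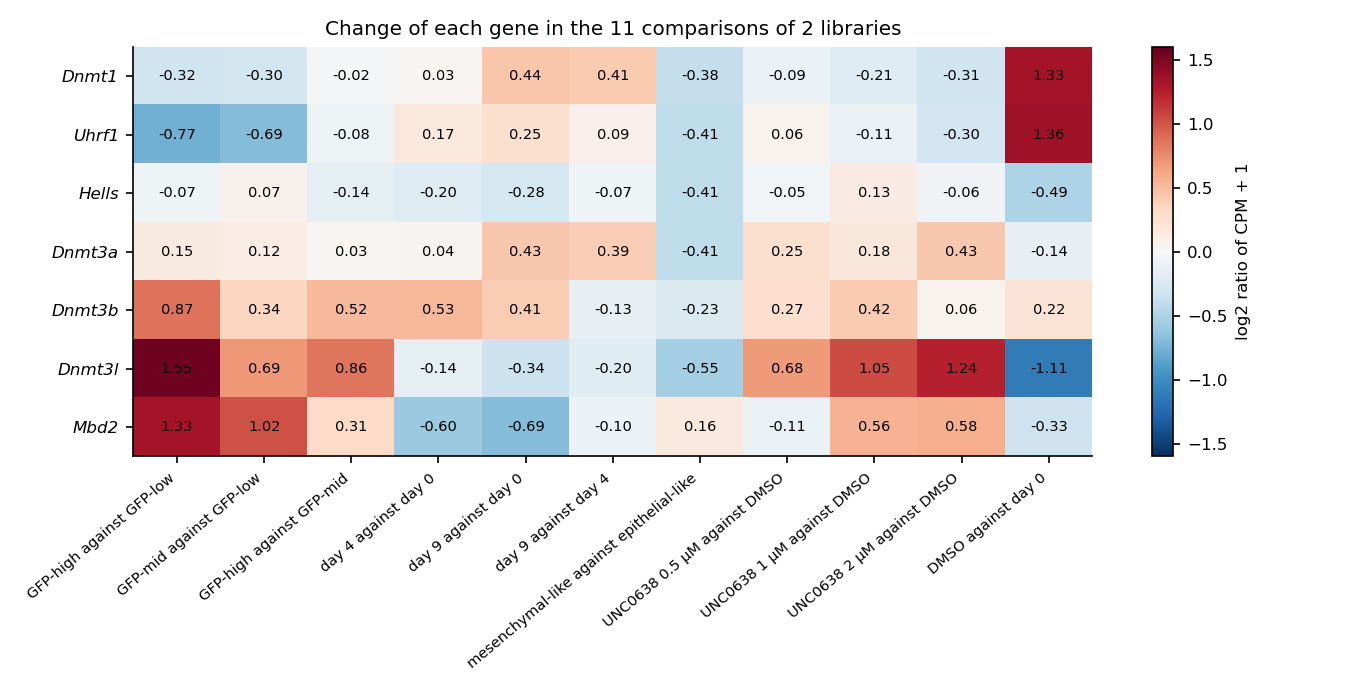
Log2 ratio of CPM + 1 for each of the 7 genes (rows) in the 11 comparisons of 2 libraries (columns), with red for higher and blue for lower in the first-named library. Dnmt3l has the largest values within the GFP and inhibitor series (1.55 for GFP-high against GFP-low, 1.24 at 2 µM), and the last column sets the DMSO library against day 0, 2 feeder cultures from different experiments, where Dnmt1 and Uhrf1 differ by 1.33 and 1.36.

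As a yardstick for these sizes, the DMSO library was set against day 0, both feeder cultures without inhibitor but from different experiments. DMSO, experiment and handling cannot be told apart here. Of the 7 genes 3 differed at least 2-fold, 2 higher and 1 lower with DMSO, where 19.4% of all genes did (12.2% higher, 7.22% lower). The fibroblast list summed to 452 CPM at day 0 and 3800 CPM with DMSO, and its part in these differences was not tested. Dnmt1 went from 219 CPM (day 0) to 551 CPM (DMSO; 2.51-fold, 2.36 to 2.67), and Uhrf1 from 217 to 556 CPM (2.57-fold, 2.42 to 2.73). Dnmt3l was 2.34-fold lower with DMSO, at 15.4 and 6.59 CPM, close in size to its 2.57-fold difference between DMSO and 2 µM UNC0638. This call of Dnmt3l was lost with a pseudocount of 5 CPM (log2 ratio -0.82) and after centring on germ cell genes (-0.97). The call of Mbd2 between GFP-mid and GFP-low was lost with a pseudocount of 5 CPM (0.70). Dnmt3a (log2 ratio -0.14) and Dnmt3b (0.22) differed little between the 2 feeder cultures.

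The 42 other pathway genes tested were also followed in the remaining comparisons. At 1 and at 2 µM UNC0638 3 of them reached 2-fold, beside 6.71% and 7.01% of all genes, a share near the background. In the other comparisons the share of all genes past 2-fold was 2.28% at day 4 and 2.6% at day 9 against day 0, 1.74% for day 9 against day 4, 12.5% for Matrigel density, 3.71% at 0.5 µM, 19.4% for DMSO against day 0, 4.07% for GFP-mid against GFP-low and 2.85% for GFP-high against GFP-mid. Against day 0 none of the 42 was past 2-fold at day 4, and at day 9 Tet2 alone was higher, at 0.907 and 3.99 CPM (log2 ratio 1.39). Between day 4 and day 9 Tet2 was again higher (1.31) and Tet1 lower (-1.18). In the mesenchymal-like library none was past 2-fold, with 10 higher and 32 lower. With UNC0638 none was at 0.5 µM; at 1 µM Tet1 (1.1) and Gadd45a (1.08) were higher and Tet2 (-1.17) lower, and at 2 µM Ctcfl, a germ cell relative of the insulator protein CTCF (1.06), and Gadd45g (1.05) were higher and Tet2 (-1.10) lower. Between day 0 and DMSO, Ahcy (1.47) and Tet2 (1.27) were among those higher with DMSO, and Apobec1 was lower (-1.09). Between GFP-high and GFP-mid Gadd45b was higher (1.26) and Apobec1 lower (-1.08), and between GFP-mid and GFP-low Gadd45g (1.37) and Gadd45a (1.29) were higher. Tet1 and Tet2 are low in these cultures, so their ratios rest on few reads.

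The tables also carry an average transcript length for each gene, weighted by the abundance of its transcripts, so that a change shows a shift in the mix. Dnmt3a is listed with 2 transcripts, which as background are known to encode a long and a short protein. Its weighted length was 6849, 6751 and 6471 bases from GFP-low through GFP-mid to GFP-high, the shortest of the 12 libraries in GFP-high. In the inhibitor series it was 7143 bases with DMSO and 7039, 6823 and 7152 bases at 0.5, 1 and 2 µM, in the density experiment 7141 and 6894 bases, and from day 0 to day 9 it was 6526, 6640 and 6676 bases. A shorter average means a larger share of the shorter transcript; the length of each transcript was not used here, so the share itself was not computed, and no counting error can be attached to these lengths. Dnmt3b, listed with 4 transcripts, varied only between 4163 and 4216 bases, and the 2 transcripts of Dnmt3l gave the same 1669 bases throughout.

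**Figure D5:**
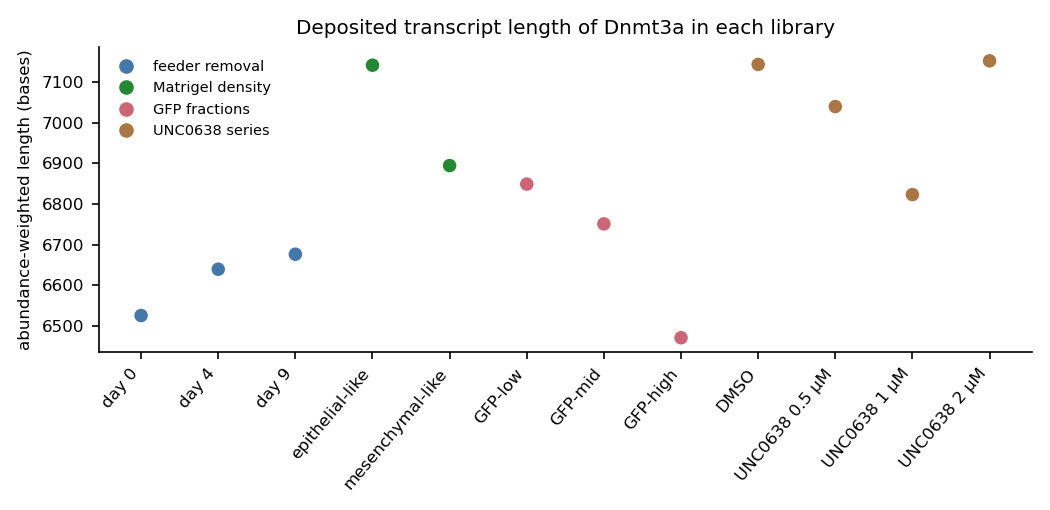
Deposited abundance-weighted transcript length of Dnmt3a in bases (vertical axis, not starting at 0) in the 12 libraries, 1 point per library, coloured by experiment. The GFP-high and day 0 libraries have the shortest averages, 6471 and 6526 bases, and the DMSO, epithelial-like and 2 µM UNC0638 libraries the longest, 7141 to 7152 bases.

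The genes whose course was most like that of Dnmt3l and Mbd2, the 2 of the 7 that spanned a log2 difference of 1 or more inside an experiment, were found among 9598 genes averaging 10 CPM or more, by the root mean square difference of log2 values centred within each experiment over the 12 libraries. For Dnmt3l these were Atoh8, a transcription factor (difference 0.14), Amigo1 (0.16) and Rnf126 (0.17), against a median of 0.48 over all candidates. Atoh8 was at 8.65, 17.4 and 25.3 CPM across the GFP fractions and 7.19, 12.5, 13.1 and 18.3 CPM from DMSO to 2 µM UNC0638. For Mbd2 they were Mgea6, Wdr32 and Gm444 (0.11, 0.11 and 0.12, median of all candidates 0.42). These genes were picked for the smallest differences, so their place below the median follows from the choice. A gene level within each experiment would differ by 0.44 from Dnmt3l and 0.37 from Mbd2. Likeness over 12 libraries from 4 experiments is a description of these libraries only.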

How the data were processed

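RNA was prepared by a modified Smart-seq2 procedure for low input, per the labels' protocols. Reads were trimmed with Trim Galore and quantified with RSEM on mm10, per the submitters' processing notes; the aligner, versions and annotation are not given in the sources used here. The deposited expected counts are RSEM's estimates, in which reads shared between genes are divided; they were rounded here. Deposited TPM, per the file headers, correct for transcript length, and the deposited length is weighted by transcript abundance; the deposited FPKM values were not used. ATAC-seq samples were not analysed here.

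CPM were computed with TMM factors (0.912 to 1.07) from edgeR 4.0.16 in R 4.3.3. The 14301 genes averaging 1 CPM or more entered the background. A difference is the log2 ratio of CPM + 1 between 2 libraries, called at 2-fold; the pseudocount understates changes of low genes. Fold values and 95% Clopper-Pearson intervals of the read split carry no pseudocount and cover counting error only, since reads copied by PCR are not separate molecules. The smallest level taken as visible, 3 counts, was 0.238 to 0.724 CPM. The 7 genes and all lists were chosen with earlier results of these data known. All members were named, and other pathway genes at 2-fold, with 8 fixed ones for the GFP fractions; 1 of these is not reported here. Alternatives were DESeq2 1.42.0 size factors, total counts, deposited TPM, centring on germ cell genes, pseudocounts of 0.1 and 5, other filters and a 1.5-fold call; the reference library was exchanged for GFP-mid after seeing the data. Promoter sequences, symbols and synonyms came from RefSeq (GRCm38.p6). Python 3.11.15 with scipy 1.17.1 was used.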

Additional observations from a re-analysis of the deposited data

How the results depend on the processing

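Between GFP-high and GFP-low 2 of the 7 genes were called; the count was 0 with a pseudocount of 5, 0 with a filter at 10 CPM (Dnmt3l and Mbd2, with means of 8.43 and 9.96 CPM, are then not tested), 4 with a 1.5-fold call and 0 with GFP-mid in place of GFP-low, the last chosen after seeing the data. At 2 µM UNC0638 the count was 1, and 0 with a pseudocount of 5 or a filter at 10 CPM. At day 9 it was 0, and 1 with a 1.5-fold call. The counts for Matrigel density (0) and for DMSO against day 0 (3) kept to within 1.5 times under the 9 alternatives run. With a pseudocount of 5, log2 ratios of Dnmt3l were 0.61 for GFP-high against GFP-low, 0.76 at 1 µM and 0.92 at 2 µM, and that of Mbd2 for GFP-high against GFP-low was 0.94. No called ratio changed sign. Centring on germ cell genes moved the median of all genes between GFP-high and GFP-low from -0.02 to 0.21 and took Dnmt3b to 1.1; deposited TPM moved it to 0.11. Relative to those medians the directions of Dnmt3l, Mbd2, Dnmt3b, Dnmt1 and Uhrf1 in that comparison did not change. Depth limits Dnmt3l and Mbd2 most, with 4 to 164 and 41 to 148 counts. No paired analysis was possible because each RNA group has 1 library; replicate numbers are shared only among the ATAC-seq samples, not analysed here.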
